A study of Mus musculus with 24 samples.

Results

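The type 2 lymphocyte cytokines are described here as 6 genes chosen by name, Il4, Il5, Il13, Il9, Csf2 and Areg, out of 39056 genes counted by RNA sequencing in cells sorted from the mouse ileum. A count above 0 in any library was found for 23189 genes and for 5 of the 6 cytokine genes, Il9 having none. CD45+ cells (leukocytes) and CD45- cells (epithelial and stromal cells) were sorted as live single cells from mice of strain C57BL/6 (by the study's methods, a C57BL/6J background) between 9.0 and 10.3 weeks old, after Peyer's patches had been removed and part of the epithelial fraction had been pooled with the lamina propria cells. In each fraction 3 libraries were sequenced for each of 4 genotypes, which combined Hoil1+/+ or Hoil1-/- with either state of Il4ra, f/f or ΔIEC. All mice were Il4ra flox/flox. Those called ΔIEC also carried Vil1-cre, which is active in intestinal epithelial cells, so that the floxed part of the interleukin-4 receptor alpha gene was removed in epithelium and not in leukocytes. Hoil1-/- mice carry the Rbck1tm1Kiwa allele, which leaves a truncated protein at a low level, and the controls were co-housed Hoil1+/+ littermates. Mice of both sexes were used, and the labels do not say which libraries came from the same mouse.

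These cytokines are made mainly by group 2 innate lymphoid cells (ILC2), T helper 2 cells, mast cells and basophils. Interleukin-4 and interleukin-13 signal through IL-4 receptor alpha, and interleukin-13 makes the intestinal epithelium produce more goblet cells and tuft cells. Tuft cells release interleukin-25, which acts back on ILC2. Interleukin-5 sustains eosinophils and interleukin-9 acts on mast cells. Csf2 encodes GM-CSF, a growth factor for myeloid cells that ILC3 and T cells also produce, and Areg encodes amphiregulin, an epidermal growth factor receptor ligand made by both leukocytes and epithelial cells.

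Of the 6 genes, 4 lie on chromosome 11 (positions from GRCm38, GENCODE M21). Il4 occupies chr11:53602982-53618669 on the minus strand and Il13 chr11:53631324-53634702 on the minus strand, 12.7 kb apart. Il5 follows at chr11:53720794-53725106 on the plus strand, 86.1 kb beyond Il13, and Csf2 at chr11:54247271-54249667 on the minus strand, 522 kb beyond Il5. Il9 is on chromosome 13 (chr13:56479277-56482246, minus strand) and Areg on chromosome 5 (chr5:91139599-91148432, plus strand). No other annotated gene overlapped any of the 6. The 250 bases before the transcription start (RefSeq, GRCm38.p6) are shown for Il13 and Il5, whose levels differed most between the Hoil1 genotypes, and for their neighbour Il4. Capitals mark a GATA word, meaning AGATAA, its variant with final G AGATAG, or the same pair with initial T, TGATAA and also TGATAG, searched on both strands because Gata3 is the lineage factor of type 2 lymphocytes. The windows are chr11:53634703-53634952 (minus strand) for Il13, chr11:53720544-53720793 (plus strand) for Il5 and chr11:53618666-53618915 (minus strand) for Il4.
Il13: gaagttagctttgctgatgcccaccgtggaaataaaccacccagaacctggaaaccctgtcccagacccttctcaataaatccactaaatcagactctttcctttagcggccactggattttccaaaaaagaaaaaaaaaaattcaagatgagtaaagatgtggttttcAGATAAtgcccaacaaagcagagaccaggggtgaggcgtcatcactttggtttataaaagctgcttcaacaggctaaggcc
Il5: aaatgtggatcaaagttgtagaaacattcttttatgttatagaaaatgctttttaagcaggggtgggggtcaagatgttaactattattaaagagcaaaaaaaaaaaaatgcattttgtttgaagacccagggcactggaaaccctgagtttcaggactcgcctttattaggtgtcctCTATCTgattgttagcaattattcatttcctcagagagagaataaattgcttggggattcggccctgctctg
Il4: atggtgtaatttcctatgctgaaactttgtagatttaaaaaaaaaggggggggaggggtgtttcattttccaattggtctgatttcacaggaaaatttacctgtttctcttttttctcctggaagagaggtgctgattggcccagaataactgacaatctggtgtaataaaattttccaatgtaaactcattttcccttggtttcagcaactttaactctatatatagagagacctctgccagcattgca

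A GATA word stood between bases -81 and -76 of the Il13 window and, as its reverse complement, between -72 and -67 of the Il5 window, counted from the start site. The Il4 window shown held none, whereas a second Il4 start, whose window lies within an intron of the gene, had 1 between -80 and -75. Csf2 had 1 at the far end of its window, between -247 and -242, and the windows of Il9 and Areg had none. Such a word was present in 26.5% of all 32851 promoter windows of this length. The AP-1 word TGACTCA was found in the Il9 window alone among these genes, between -140 and -134, and in 4.46% of all windows. These matches describe the letters and say nothing about whether a factor binds.

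The deposited values were raw counts per gene, summing to 14938629 to 76807504 per CD45+ library and 6028275 to 68345191 per CD45- library. Levels are given as CPM, a gene's count scaled to the total of its library. Rbck1, the gene that encodes HOIL1, was at 54.0 to 169 CPM in 6 CD45+ Hoil1+/+ libraries, against 3.67 to 15.5 CPM in 6 of Hoil1-/-, so each library matched its Hoil1 label in this fraction. In CD45- cells it was at 70.9 to 131 CPM in Hoil1+/+ and at 0 to 8.71 CPM in Hoil1-/- libraries. Il4ra was not lower in CD45- ΔIEC than f/f libraries (log2 difference 0.02, SE 0.35, adjusted p = 1.00 with edgeR's quasi-likelihood test). These counts cover the whole gene, including what lies outside the deleted part, and do not check that label. In CD45+ cells Il4ra was at 73.9 to 293 CPM in ΔIEC and 60.9 to 162 CPM in f/f libraries (log2 difference 1.09, SE 0.28, adjusted p = 0.283). Ptprc, which encodes CD45, was at 180 to 845 CPM in CD45+ and at 0 to 16.3 CPM in CD45- libraries. The study removed 3 libraries as outliers on principal components: CD45+ Hoil1-/- f/f replicate 1, CD45+ Hoil1-/- ΔIEC replicate 3 and CD45- Hoil1-/- f/f replicate 3. Tests were run without these, on 10 CD45+ and 11 CD45- libraries, and their values are given separately. The left-out CD45+ libraries had counts for 13534 (f/f) and 12847 genes (ΔIEC), against 14690 to 17109 in the tested CD45+ libraries. A count of 0 in them therefore does not show that a transcript was absent. Immunoglobulin genes took 12.1% to 44.0% of the counts of CD45+ libraries, with the highest share in Hoil1-/- f/f replicate 3.

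Il4, Il5 and Il13 transcripts were found in CD45+ cells and not in CD45- cells. All 12 CD45- libraries were without a count of Il4, Il5 or Il13, and in them 3 counts, the upper limit that a count of 0 allows, corresponded to 0.0439 to 0.498 CPM. Csf2 was counted in 1 of the 12 CD45- libraries, at 0.864 CPM in Hoil1+/+ f/f replicate 2. Areg was counted in 11 of the 12 CD45- libraries. Over the libraries tested, the mean of Il4 was 5.51 CPM in CD45+ cells, at least 23.7-fold above the mean floor of the CD45- libraries, and that of Il13 was 13.8 CPM, at least 59.4-fold above it. Il5 had a mean of 3.26 CPM in CD45+ cells, also above that floor. Mean Csf2 was 4.05 ± 3.11 CPM (SD, n = 10) in CD45+ against 0.0786 ± 0.261 CPM (SD, n = 11) in CD45- libraries.

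Il4, Il13 and Csf2 were higher in CD45+ cells with edgeR's quasi-likelihood test (adjusted p = 6.94e-06, 1.76e-04 and 1.55e-04), in a comparison that called 49.6% of the 18778 genes tested. Il4 and Il13 had no count in CD45- cells and Csf2 almost none, so they passed the low-count filter through CD45+ libraries. These calls are therefore a description. The Il5 difference could not be estimated, because whole groups had no count in both fractions. Areg did not pass (log2 difference 0.13, SE 0.66, adjusted p = 1.00), with 5.21 ± 6.34 CPM (SD, n = 10) in CD45+ and 3.85 ± 2.75 CPM (SD, n = 11) in CD45- libraries. Il9, the mast cell growth factor gene, was at 0 in all 24 libraries, and the 3-count limit was 0.0391 to 0.201 CPM per CD45+ library. Of the 120 values of the other 5 genes, 60 were 0 and none lay from 1 to 7 counts, the lowest above 0 being 8. Among all genes with a count, 33.8% of values were 0 and 5.43% were from 1 to 7. The libraries were amplified by PCR without molecular identifiers, so reads are not independent molecules and every such limit covers counting error only. In bulk samples, fewer cells of a type and less RNA per cell cannot be told apart.

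**Figure D1:**
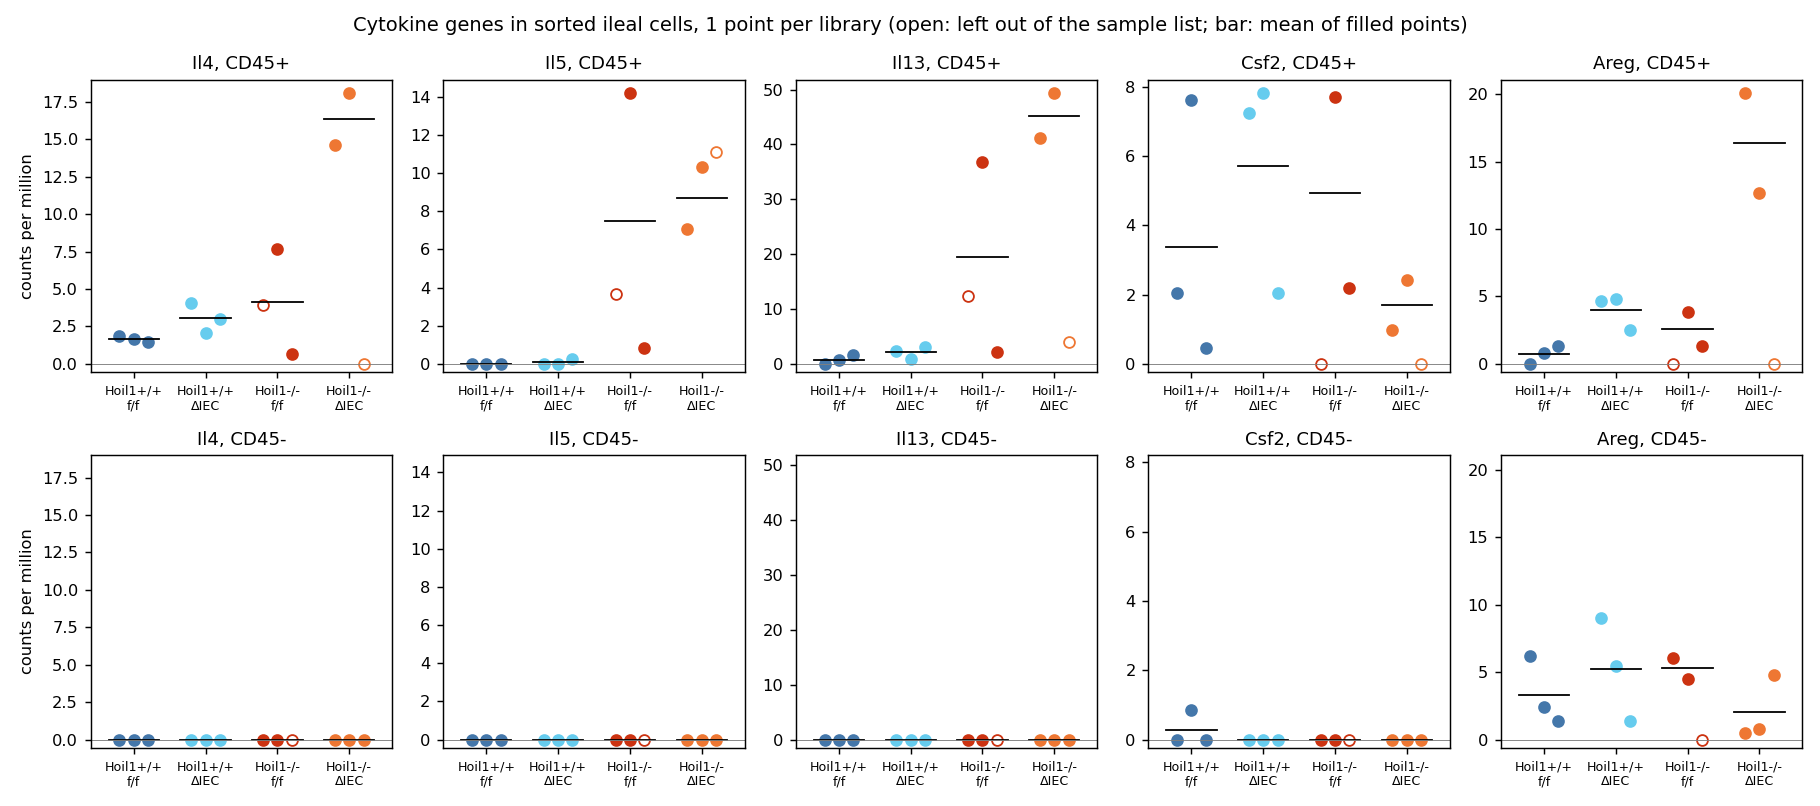
CPM (linear axes) of 5 cytokine genes in each library, by genotype, in CD45+ (upper row) and CD45- cells (lower row). Points are libraries, filled where tested and open where the study left them out, and bars are means of the filled points. In CD45+ cells, every Hoil1-/- library lies above every Hoil1+/+ library for Il5, and all but f/f replicate 3 do so for Il13. Both genes are at 0 in every CD45- library.

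In CD45+ cells, Il5 and Il13 were the cytokine genes with the widest gap between the Hoil1 genotypes. Il5, the eosinophil growth factor gene, had no count in Hoil1+/+ f/f replicates 1, 2 and 3 nor in Hoil1+/+ ΔIEC replicates 1 and 2, and was at 0.237 CPM (15 counts) in ΔIEC replicate 3. Among Hoil1-/- f/f libraries, replicate 2 had 14.2 CPM and replicate 3 had 0.839 CPM, and among Hoil1-/- ΔIEC libraries replicate 1 had 7.07 CPM and replicate 2 had 10.3 CPM. The left-out Hoil1-/- libraries stood at 3.68 CPM (f/f replicate 1) and 11.1 CPM (ΔIEC replicate 3). Every one of the 6 Hoil1-/- libraries was above every Hoil1+/+ library. The mean was 8.10 ± 5.64 CPM (SD, n = 4) for Hoil1-/- against 0.0396 ± 0.0969 CPM (SD, n = 6) for Hoil1+/+, the latter resting on a single library.

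The study had already reported Il5 as differing between the Hoil1 genotypes in these CD45+ cells, by its own edgeR analysis. The direction was thus known beforehand, and the test results for Il5 are a description. An exact permutation test on log2(CPM + 0.1), two-sided, gave a difference of 5.52 for Il5 with p = 0.00952, the smallest that 4 against 6 libraries allow. Over all 12 libraries the difference was 5.59 and the exact permutation p = 0.00216, again the smallest possible. The genotypes were apart in this direction for 0.423% of the 17029 genes tested in the 10 libraries and for 0.0934% of 16060 genes in the 12. With edgeR's quasi-likelihood test, averaged over the Il4ra genotypes and adjusted over all genes, Il5 did not pass (adjusted p = 0.378). DESeq2 called it (adjusted p = 1.17e-07), as did edgeR's likelihood ratio test (adjusted p = 2.68e-06). No fitted fold is given for Il5, since a group without counts leaves it undefined.

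Il13, which encodes the cytokine that drives goblet and tuft cell formation, was at 0, 0.716 and 1.68 CPM in Hoil1+/+ f/f replicates 1 to 3 and at 2.32, 0.912 and 3.15 CPM in Hoil1+/+ ΔIEC replicates 1 to 3. Among Hoil1-/- f/f libraries, replicate 2 reached 36.9 CPM and replicate 3 only 2.21 CPM, while Hoil1-/- ΔIEC replicates 1 and 2 reached 41.1 and 49.3 CPM. The left-out libraries were at 12.5 CPM (f/f replicate 1) and 3.98 CPM (ΔIEC replicate 3). Hoil1-/- f/f replicate 3, the Hoil1-/- library of lowest Il5 and Il13, lay among the Hoil1+/+ libraries, so the genotypes overlapped for Il13. Over the libraries tested, Hoil1-/- averaged 32.4 ± 20.8 CPM (SD, n = 4), 22.1 times the Hoil1+/+ average of 1.46 ± 1.15 CPM (SD, n = 6). The log2 difference was 4.24 (SE 0.96) with edgeR, adjusted p = 0.516. The exact permutation p was 0.0286 over 10 libraries (difference 4.32) and 0.00649 over 12 (difference 3.81). It was 0.0714 without Hoil1-/- f/f replicate 2 and likewise without Hoil1-/- ΔIEC replicate 1 or 2, where the smallest possible p is 0.0238. DESeq2 called Il13 (adjusted p = 0.0412), and so did the likelihood ratio test (adjusted p = 0.00743).

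Il4, the classical T helper 2 cytokine gene, differed less. It was at 1.84, 1.64 and 1.48 CPM in the Hoil1+/+ f/f replicates, the narrowest spread of any group in which it was counted, and at 4.08, 2.06 and 3.01 CPM in the Hoil1+/+ ΔIEC replicates. Hoil1-/- f/f replicates 2 and 3 had 7.65 and 0.647 CPM, and Hoil1-/- ΔIEC replicates 1 and 2 had 14.6 and 18.1 CPM. Of the left-out libraries, f/f replicate 1 was at 3.94 CPM and ΔIEC replicate 3 at 0. Thus 3 of the 4 tested Hoil1-/- libraries lay above all Hoil1+/+ libraries and the fourth lay below all of them. The log2 difference was 1.67 (SE 0.53) with edgeR, adjusted p = 0.783. The exact permutation p was 0.143 over 10 libraries (difference 1.45) and 0.801 over 12 (difference 0.34). Leaving out Hoil1-/- f/f replicate 3 gave a difference of 2.47 with the smallest exact p that 3 against 6 libraries allow, 0.0238.

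Areg and Csf2 were not separated by Hoil1 genotype. Areg was at 0, 0.794 and 1.35 CPM in Hoil1+/+ f/f and at 4.66, 4.84 and 2.53 CPM in Hoil1+/+ ΔIEC replicates. Hoil1-/- f/f replicates 2 and 3 had 3.86 and 1.32 CPM and Hoil1-/- ΔIEC replicates 1 and 2 had 20.1 and 12.7 CPM, whereas both left-out libraries had none. Its log2 difference was 1.79 (SE 0.85) with edgeR, adjusted p = 0.783, and the exact permutation p was 0.124 over 10 libraries (difference 2.12) and 0.942 over 12 (difference 0.14). The high values thus came from the 2 tested libraries that were both Hoil1-/- and ΔIEC.

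Csf2 was the 1 member with a lower mean in Hoil1-/-. It was at 2.03, 7.60 and 0.451 CPM in Hoil1+/+ f/f and at 7.25, 7.81 and 2.04 CPM in Hoil1+/+ ΔIEC replicates. Replicates 2 and 3 of Hoil1-/- f/f had 7.69 and 2.18 CPM, Hoil1-/- ΔIEC replicates 1 and 2 had 0.981 and 2.41 CPM, and both left-out libraries had none. The log2 difference was -0.60 (SE 0.68), adjusted p = 0.920 with edgeR, and the exact permutation p was 0.800 over 10 libraries and 0.182 over 12, where the difference on the log2(CPM + 0.1) scale was -1.87. Ages were unequal between the genotypes, since the 4 tested Hoil1-/- libraries came from mice of 9.4 to 9.9 weeks. Of the 6 Hoil1+/+ libraries, 3 came from mice of 9.7 to 9.9 weeks and 3 from mice of 9.0 to 9.1 weeks. Csf2 was at 7.25 to 7.81 CPM in the older Hoil1+/+ libraries and 0.451 to 2.04 CPM in the younger ones, and T cell markers summed to 3158 to 3668 CPM in the former and 325 to 616 CPM in the latter. Among the libraries from the older mice (4 against 3), the difference between Hoil1-/- and Hoil1+/+ was -1.54 for Csf2 (exact permutation p = 0.171), 5.81 for Il5 (p = 0.0571, the smallest possible) and 4.02 for Il13 (p = 0.114). The younger mice gave differences of 5.44 for Il5 and 3.10 for Il13, but only with the 2 left-out Hoil1-/- libraries, and the smallest possible p was 0.200. Age was not a term of the models, and its part in these differences was not tested.

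In the Hoil1 comparison averaged over the Il4ra genotypes, edgeR's quasi-likelihood test called 0 of the 5 cytokine genes tested, beside 1 of 17029 genes (0.00587%), which was Rbck1. At an unadjusted p under 0.05 it held 3 of the 5 (Il5, Il13 and Il4), beside 5.85% of all genes. Il5 entered the test through its Hoil1-/- libraries, so this count is a description. DESeq2 and the likelihood ratio test each called 2 of the 5, Il5 and Il13, beside 0.92% and 0.605% of all genes. The median log2 difference of the 5 was 1.79 (1.73 without Il5), against -0.049 for all genes. Leaving out each of the 10 libraries in turn, the quasi-likelihood test called no member, and the log2 difference of Il13 ranged from 2.90 to 5.03.

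The comparison within each Il4ra genotype asked whether the Hoil1 difference was present when the epithelium lacked the receptor for interleukin-4 and interleukin-13. The ratio of mean Il13 between Hoil1-/- and Hoil1+/+ was 24.5 in f/f and 21.3 in ΔIEC, and the log2 differences were 4.14 (SE 1.36) and 4.33 (SE 1.35) with adjusted p = 0.836 and 0.729. The f/f value rests on Hoil1-/- replicate 2, without which the ratio was 2.76 and the log2 difference 1.47 (adjusted p = 1.00), at the low end of 1.47 to 5.73 over the 10 libraries left out in turn. Mean Il5 was 7.51 ± 9.43 CPM (SD, n = 2) in Hoil1-/- f/f, at least 158-fold above the 3-count floor of its controls. Without replicate 2 that bound was 17.6-fold, and without replicate 3 it was 298-fold. In ΔIEC, mean Il5 was 8.69 ± 2.29 CPM (SD, n = 2) in Hoil1-/- against 0.0791 ± 0.137 CPM (SD, n = 3) in Hoil1+/+ libraries. For Il4 the log2 differences were 0.95 (SE 0.74) in f/f and 2.39 (SE 0.75) in ΔIEC. For Csf2 they were 0.55 (SE 0.94) and -1.76 (SE 1.02), and with all 12 libraries the f/f value was -0.047. The quasi-likelihood test called no member and none of the 17029 genes in either genotype (0%). At an unadjusted p under 0.05 it held Il5 and Il13 in f/f (5.27% of all genes) and Il5, Il13 and Il4 in ΔIEC (6.08%). Il5 was called within f/f by DESeq2 (adjusted p = 7.99e-05, 0.6% of genes called), the likelihood ratio test (8.03e-04, 0.388%) and edgeR's exactTest (0.00570, 0.276%), and within ΔIEC by DESeq2 (0.0173, 1.28%). Within ΔIEC it did not pass the likelihood ratio test (0.0913, 0.299%) or exactTest (0.154, 0.229%). Il5 had no count in any Hoil1+/+ f/f library and passed the low-count filter through its Hoil1-/- libraries, so these calls too are a description.

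Whether the Hoil1 difference itself changed with epithelial Il4ra was tested by the interaction. No member passed (0% of genes called, 7.01% at an unadjusted p under 0.05). The interaction was 0.19 (SE 1.84) for Il13, 1.43 (SE 1.07) for Il4, 0.52 (SE 1.73) for Areg and -2.31 (SE 1.37) for Csf2, with adjusted p between 0.750 and 1.00. The standard error of Il13 spans changes of several-fold in either direction, so an equal difference in both genotypes was not shown. With ΔIEC compared with f/f across both Hoil1 genotypes, Areg had the largest log2 difference of the 4 members fitted, 2.21 (SE 0.90, adjusted p = 0.449). That contrast called 0.00587% of genes and held 10.6% of all genes at an unadjusted p under 0.05, among the members Areg alone. In Hoil1+/+ libraries, the means of Areg were 4.01 ± 1.28 CPM in ΔIEC and 0.716 ± 0.680 CPM in f/f (SD, n = 3 each). Il4 was at 3.05 ± 1.01 CPM in Hoil1+/+ ΔIEC and 1.65 ± 0.178 CPM in Hoil1+/+ f/f (SD, n = 3 each), and its difference over both Hoil1 genotypes was 1.15 (SE 0.54, adjusted p = 0.474). Il13 (1.02, SE 0.92) and Csf2 (-0.60, SE 0.68) did not pass either.

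**Figure D2:**
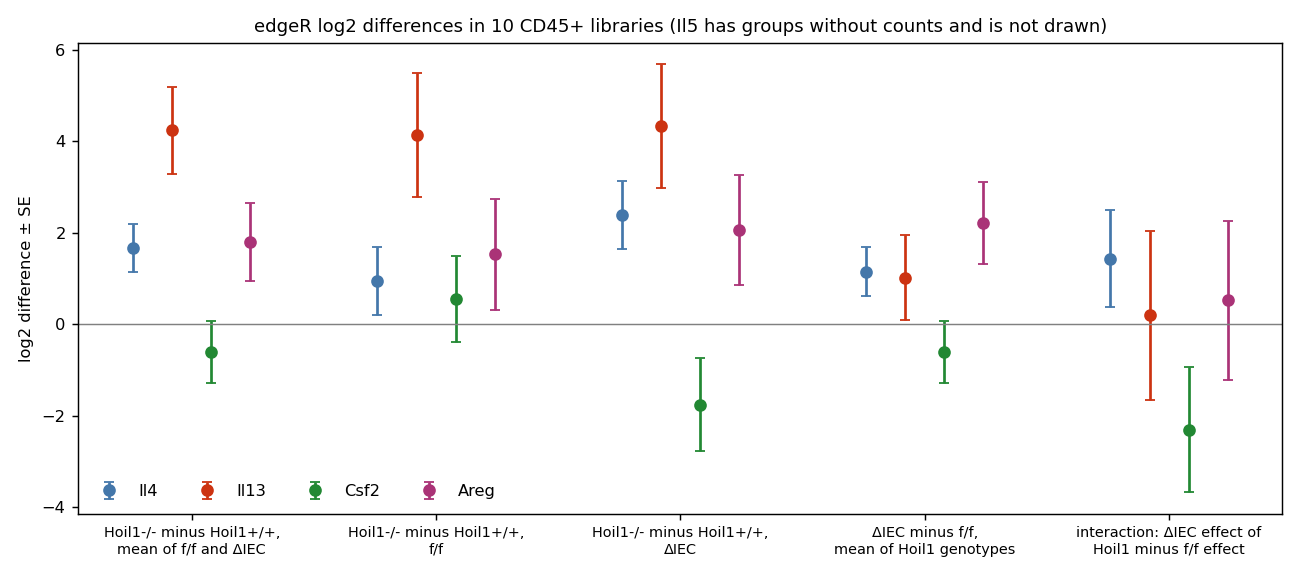
Fitted log2 differences (points) with standard errors (bars) of Il4, Il13, Csf2 and Areg in 10 CD45+ libraries for the 5 contrasts. Il13 lies above 4 in each Hoil1 contrast, and Csf2 changes sign between f/f and ΔIEC with wide errors.

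Ordered by group mean in the libraries tested, Il13 ran from 45.2 ± 5.81 CPM (Hoil1-/- ΔIEC, SD, n = 2) through 19.5 ± 24.5 (Hoil1-/- f/f, n = 2) and 2.13 ± 1.13 (Hoil1+/+ ΔIEC, n = 3) to 0.798 ± 0.842 CPM (Hoil1+/+ f/f, n = 3). Hoil1-/- f/f overlapped Hoil1+/+ ΔIEC, which overlapped Hoil1+/+ f/f, while both Hoil1-/- ΔIEC values lay above all others. Il4 had the same order, with 16.4 ± 2.43, 4.15 ± 4.95, 3.05 ± 1.01 and 1.65 ± 0.178 CPM, and Hoil1-/- f/f overlapped every Hoil1+/+ group. Areg ran from 16.4 ± 5.24 CPM in Hoil1-/- ΔIEC to 4.01 ± 1.28 in Hoil1+/+ ΔIEC, 2.59 ± 1.80 in Hoil1-/- f/f and 0.716 ± 0.680 CPM in Hoil1+/+ f/f, with overlap between the middle groups and between the lower 2. Csf2 ran from 5.70 ± 3.18 CPM in Hoil1+/+ ΔIEC to 4.94 ± 3.90 in Hoil1-/- f/f, 3.36 ± 3.76 in Hoil1+/+ f/f and 1.70 ± 1.01 CPM in Hoil1-/- ΔIEC, and all neighbours overlapped.

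Levels of different genes were compared as CPM per kb of exonic length. In CD45+ Hoil1+/+ libraries the mean level per kb was highest for Csf2 (5.66), followed by Areg (1.94), Il4 (1.92), Il13 (1.21) and Il5 (0.0257). In the 4 tested Hoil1-/- libraries it was highest for Il13 (26.9), followed by Il4 (8.36), Areg (7.80), Il5 (5.27) and Csf2 (4.14). Csf2 was the largest share of the summed length-scaled level of the 6 genes in 4 of the 6 Hoil1+/+ libraries, with 49.9% to 78.6%. In the other two, f/f replicate 3 and ΔIEC replicate 3, Il13 was ahead with 32.6% and 26.5%. Among the Hoil1-/- libraries Il13 led in 4 of 6, with 49.9% to 64.9%. The exceptions were f/f replicate 3, where Csf2 held 40.6% and Il13 27.3%, and the left-out ΔIEC replicate 3, where Il5 held 68.6%. The summed level was 4.04 to 18.1 CPM per kb in Hoil1+/+ and 6.71 to 75.8 CPM per kb in the tested Hoil1-/- libraries. Il13 exceeded Il5 per kb by 3.32 to 7.41 times in those 4 libraries, and its ratio to Il4 was 2.78 to 4.91 there against 0 to 1.15 in the Hoil1+/+ libraries.

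**Figure D3:**
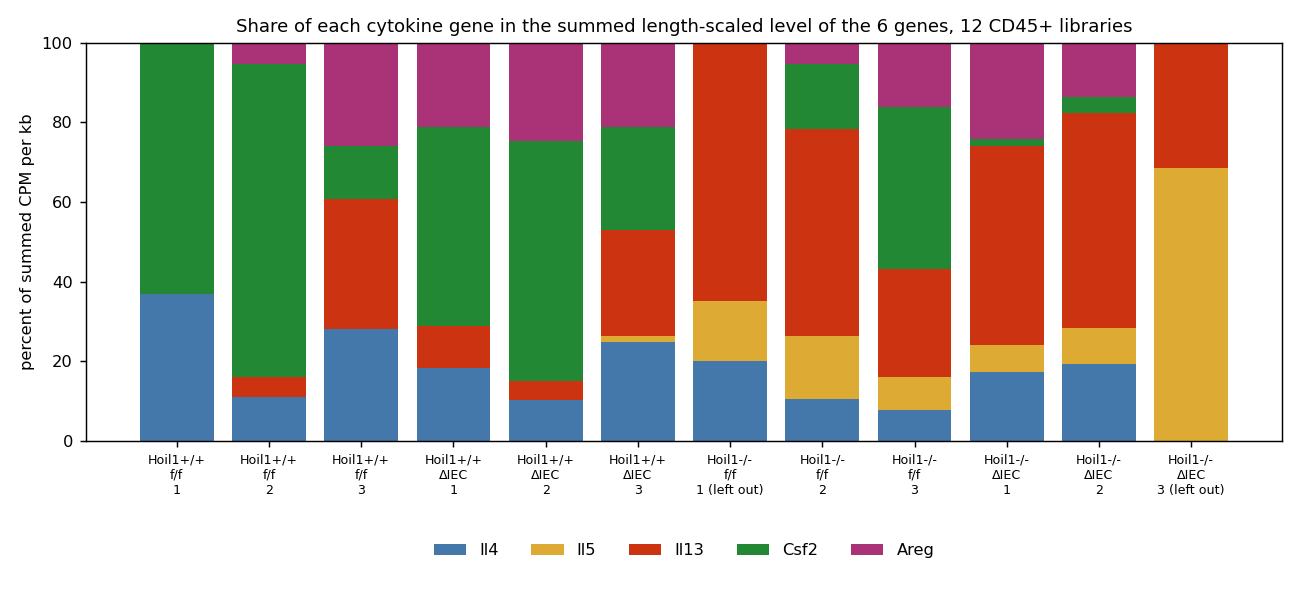
Stacked bars give the percent of each gene in the summed CPM per kb of the 6 cytokine genes, for each of the 12 CD45+ libraries. Csf2 fills the largest part of 4 Hoil1+/+ bars and Il13 that of 4 Hoil1-/- bars.

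Markers of ILC2 were measured in the same libraries, and none was called. The list held 10 genes, among them Klrg1, a surface receptor, and Nmur1, the receptor for neuromedin U, and all 10 had positive log2 differences between Hoil1-/- and Hoil1+/+ with a median of 2.71, or 2.61 without the genes that had no count in a whole group. With the quasi-likelihood test, 9 of 10 had an unadjusted p under 0.05, beside 5.85% of all genes. The study had already reported Klrg1, Nmur1, Il17rb and 1700061F12Rik of this list as differing in these CD45+ cells. Their direction was thus known beforehand, and the counts for the list are a description. The summed level of all 10 was 30.0 to 178 CPM (median 110) in Hoil1+/+ and 120 to 765 CPM (median 591) in the tested Hoil1-/- libraries. With the left-out libraries the Hoil1-/- range was 91.4 to 765 CPM (median 336). Klrg1 was at 2.45 to 12.2 CPM in Hoil1+/+ and 15.7 to 79.5 CPM in tested Hoil1-/- libraries (log2 difference 2.88, SE 0.40, adjusted p = 0.0968). Nmur1 was at 1.34 to 5.59 and 9.90 to 92.6 CPM (3.77, SE 0.51, adjusted p = 0.0968). Of the list, Calca, Ptgdr2 and 1700061F12Rik were at 0 in some CD45+ libraries. Hoil1-/- f/f replicate 3, the library of lowest Il5 and Il13 among the tested Hoil1-/- libraries, also had their lowest marker sum, 120 CPM, below Hoil1+/+ ΔIEC replicates 1 and 2 at 178 and 166 CPM. The left-out Hoil1-/- ΔIEC replicate 3 had 11.1 CPM of Il5 at a marker sum of 91.4 CPM, below the Hoil1+/+ median. Its Klrg1 (24.5 CPM) and Nmur1 (10.7 CPM) were nevertheless above those of every Hoil1+/+ library. The sum also includes Hs3st1, whose median was 28.6 CPM in CD45+ and 60.3 CPM in CD45- libraries.

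Divided by Klrg1 in the same library, Il5 was 0 to 0.0711 in Hoil1+/+ and 0.0533 to 0.303 in the 4 tested Hoil1-/- libraries, and Il13 was 0 to 0.943 and 0.140 to 1.45. Divided by Nmur1, Il5 was 0 to 0.0955 in Hoil1+/+ and 0.0847 to 0.478 in tested Hoil1-/- libraries, and Il13 was 0 to 1.33 and 0.223 to 2.29. The medians for Il13 were 0.180 and 0.727 relative to Klrg1, but 0.806 and 0.799 relative to Nmur1. Relative to either marker, the genotypes overlapped for both genes. For Il5 the overlap rested on the single Hoil1+/+ library with a count of it. The part of the ILC2 marker level in the cytokine differences was not tested. The marker list shares Gata3, Arg1 and 4 receptor genes with the lists below, so these are not separate observations.

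**Figure D4:**
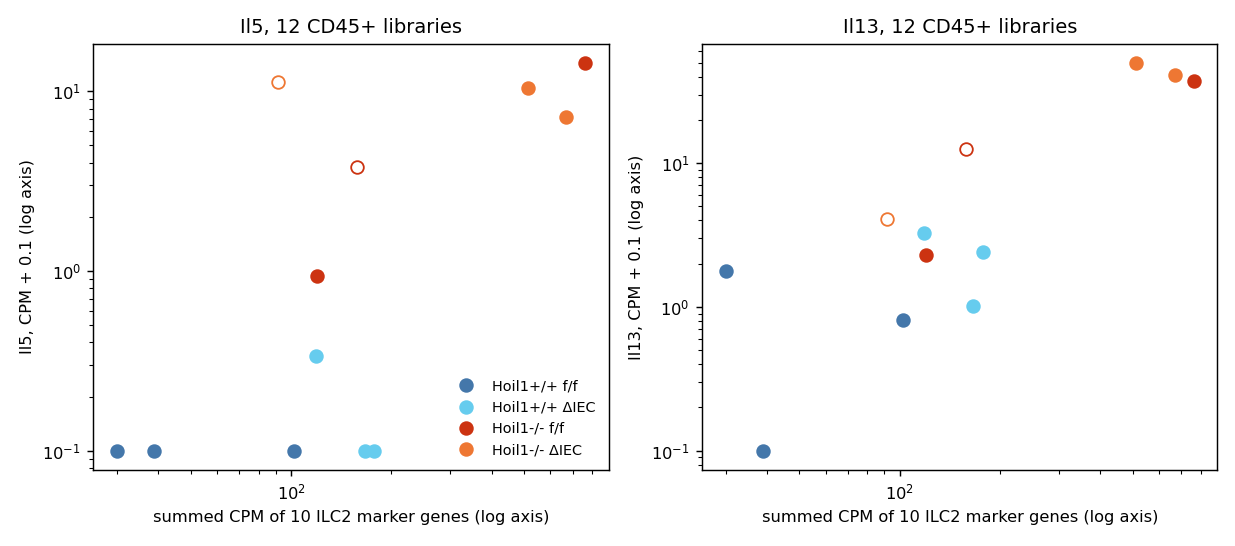
Il5 (left) and Il13 (right) as CPM + 0.1 against the summed CPM of 10 ILC2 marker genes, both on log axes, for 12 CD45+ libraries; open points are the 2 left out by the study. The 3 Hoil1-/- libraries with sums of 513 to 765 CPM have the highest Il13, while the left-out Hoil1-/- ΔIEC library reaches 11.1 CPM of Il5 at a sum of 91.4 CPM. Klrg1 and Nmur1 alone are higher in that library than in every Hoil1+/+ library.

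Other producers and neighbours in the sort were measured in the same way. T cell markers summed to 325 to 3668 CPM in Hoil1+/+ and 1009 to 1518 CPM in tested Hoil1-/- libraries. Of these markers, 9 of 10 had negative log2 differences (median -0.57) and 0 of 10 had an unadjusted p under 0.05. Mast cell and basophil markers summed to 144 to 1129.5 and 233 to 508 CPM, with Prss34 at 0 throughout and 0 of 8 tested at that level. Their log2 differences were positive for 4 and negative for 4. Eosinophil markers summed to 21.01 to 67.3 CPM (median 28.4) in Hoil1+/+ and 55.0 to 68.3 CPM (median 57.0) in tested Hoil1-/- libraries. All 4 tested had positive log2 differences (median 0.53), 0 of 4 had an unadjusted p under 0.05, and Epx was at 0 throughout. ILC3 markers summed to 21.8 to 134 and 24.4 to 147 CPM (0 of 5), and all 5 likewise had positive log2 differences (median 0.53). Endothelial and stromal markers summed to 62.5 to 125 and 71.4 to 250.3 CPM, and 3 of 5 were higher at an unadjusted p under 0.05, beside 5.85% of all genes. All 5 had positive log2 differences (median 0.99). Sums for B and plasma cells (13605 to 31014 and 9482 to 23862 CPM, 1 of 7 higher), macrophages and dendritic cells (2986 to 5224 and 2968 to 4813 CPM, 0 of 6) and epithelium (60.5 to 481 and 62.0 to 228 CPM, 0 of 6) overlapped between genotypes. Log2 differences were negative for 6 of 6 macrophage and dendritic cell markers (median -0.10), 6 of 6 epithelial markers (median -0.77) and 4 of 7 B and plasma cell markers. The part of all these cell types in the cytokine differences was not tested. With immunoglobulin genes removed before scaling, the permutation differences were 5.88 for Il5 (exact permutation p = 0.00952) and 4.43 for Il13 (exact permutation p = 0.0190).

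Receptors for the signals that induce these cytokines were compared between Hoil1-/- and Hoil1+/+ CD45+ cells. Of 12, 5 had a positive difference at an unadjusted p under 0.05, beside 5.85% of all genes, and none was called. The study had already reported Il17rb and Nmur1 as differing in these cells. The median of the list was 0.90, or 0.84 without the gene that had no count in a whole group. Il17rb, a subunit of the interleukin-25 receptor, averaged 7.91 ± 5.31 CPM (SD, n = 6) without and 102 ± 57.3 CPM (SD, n = 4) with the Hoil1 mutation (log2 difference 3.79, SE 0.51, adjusted p = 0.0968). Il1rl1, the interleukin-33 receptor, was at 6.27 ± 2.41 and 31.7 ± 16.4 CPM (2.17, SE 0.35, adjusted p = 0.250). Besides Nmur1, Il18rap (0.99, SE 0.33) and Il7r (0.95, SE 0.40) completed the 5, and both were named after their values had been seen.

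Among 18 transcription regulators, 2 were higher at an unadjusted p under 0.05, none lower and none called, with a median of 0.077. Of all genes, 5.85% passed that threshold in this comparison. Gata3, the lineage factor of type 2 lymphocytes, averaged 47.2 ± 34.4 CPM (SD) in the 6 Hoil1+/+ libraries against 187 ± 102 CPM (SD) in the 4 Hoil1-/- libraries (2.07, SE 0.50, adjusted p = 0.569). Rora, an ILC2 lineage factor, had a difference of 1.15 (SE 0.51, adjusted p = 0.783). Bhlhe41 had -1.18 (SE 0.57, adjusted p = 0.783). Of the cytokines' own receptors, 1 of 9 was higher at an unadjusted p under 0.05, Il9r (mean 9.85 against 37.2 CPM, log2 difference 2.22, SE 0.36, adjusted p = 0.250), although its ligand gene Il9 had no count. Il2rg had 0.32 (SE 0.15) and Il13ra1 -0.47 (SE 0.28). Il5ra, the eosinophil receptor for interleukin-5, had 0.29 (SE 0.69).

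The genes around the chromosome 11 cluster were also compared between the Hoil1 genotypes in CD45+ cells. Of 10 neighbours tested, 0 had an unadjusted p under 0.05. Their median was 0.20, or 0.39 without the genes that had no count in a whole group. The median of all genes was -0.049. P4ha2 had a log2 difference of 1.43 (SE 0.65, adjusted p = 0.783) and Rad50, which lies between Il13 and Il5, 0.49 (SE 0.24, adjusted p = 0.783). Slc22a4 was at 0 to 1.28 CPM in Hoil1+/+ and 0 to 0.981 CPM in Hoil1-/- libraries. Of 12 other lymphocyte cytokines, 0 had an unadjusted p under 0.05 and the median was 0.25, with Il10 at -0.82 (SE 0.48), Ltb at 0.37 (SE 0.25) and Il6 at 1.93 (SE 1.34). A gene list with 0 calls does not show that its members are equal between genotypes.

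Genes that macrophages raise in response to interleukin-4 and interleukin-13 included 3 of 7 that were higher at an unadjusted p under 0.05 (5.85% of all genes), none called. Arg1, which encodes arginase and is also an ILC2 marker, averaged 8.29 ± 4.54 CPM (SD) in 6 Hoil1+/+ against 44.3 ± 25.1 CPM (SD) in 4 Hoil1-/- libraries, with a log2 difference of 2.33 (SE 0.39, adjusted p = 0.273). Ccl24, an eosinophil chemokine, had 2.25 (SE 0.39, adjusted p = 0.274) and Retnla 2.93 (SE 0.63, adjusted p = 0.516).

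**Figure D5:**
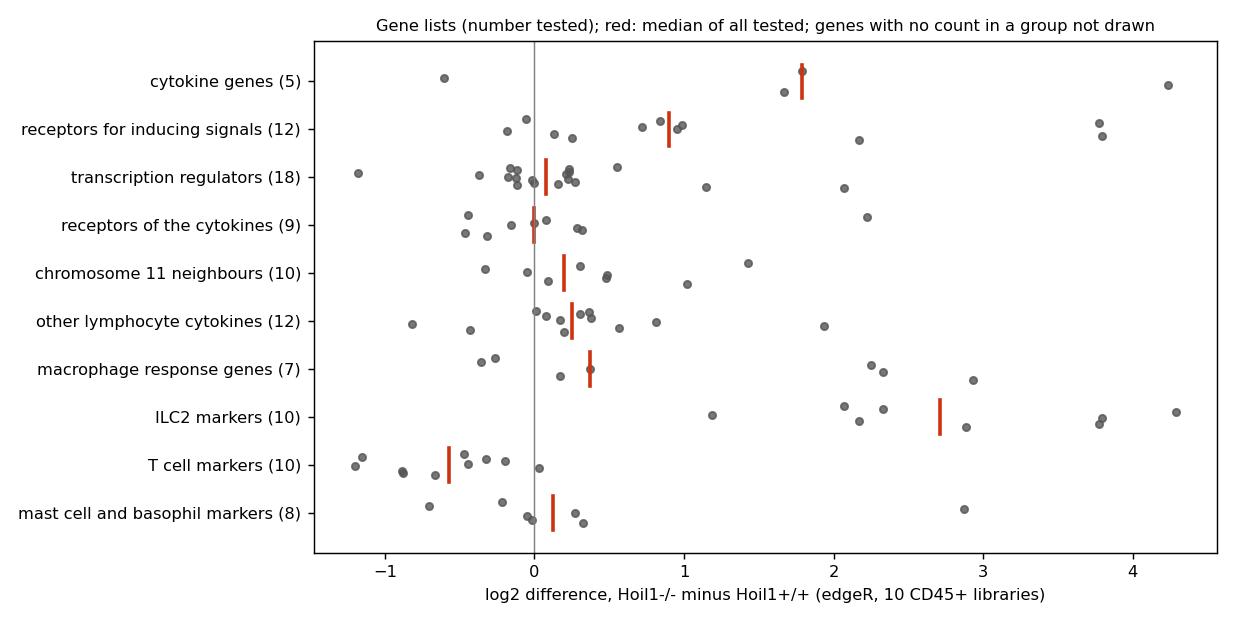
Each grey point is the edgeR log2 difference between Hoil1-/- and Hoil1+/+ of 1 gene in 10 CD45+ libraries, by list, and red bars are list medians over all genes tested. The 7 of 101 entries with no count in a whole group, Il5 among them, are not drawn; the ILC2 markers (median 2.71) and the cytokine genes (1.79) lie farthest to the right.

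Areg was the only member that could be tested in CD45- cells. It was at 6.17, 2.43 and 1.38 CPM in Hoil1+/+ f/f, at 8.98, 5.44 and 1.36 CPM in Hoil1+/+ ΔIEC and at 0.455, 0.800 and 4.81 CPM in Hoil1-/- ΔIEC replicates 1 to 3. Replicates 1 and 2 of Hoil1-/- f/f had 6.04 and 4.51 CPM, and the left-out replicate 3 had none. The groups overlapped, and the Hoil1 difference was -0.40 (SE 0.84, adjusted p = 1.00), in a comparison that called 0.0182% of 16453 genes. The Il4ra difference was -0.31 (SE 0.83, adjusted p = 1.00, 0% of genes called).

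Of the other epidermal growth factor receptor ligands, Hbegf averaged 64.9 ± 33.4 CPM (SD) in the 6 CD45- Hoil1+/+ libraries against 25.9 ± 5.25 CPM (SD) in the 5 Hoil1-/- libraries (log2 difference -1.30, SE 0.43, adjusted p = 0.820). Egf was at 0 to 4.73 CPM in Hoil1+/+ and at 0 in all 5 tested Hoil1-/- libraries, with adjusted p = 0.659. Of the 5 ligands tested there, those 2 were lower at an unadjusted p under 0.05 (5.28% of all genes) and none was called. Egf passed the low-count filter through its Hoil1+/+ libraries, so this count is a description. In CD45+ cells, 0 of 4 ligands tested had an unadjusted p under 0.05.

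Epithelial genes that respond to interleukin-13 were measured in the CD45- fraction, where 3 of 7 were higher in Hoil1-/- at an unadjusted p under 0.05 (5.28% of all genes). Trpm5, a tuft cell ion channel, was called, with a higher mean in Hoil1-/- (11.3 ± 3.57 CPM, SD, n = 6, against 96.3 ± 115 CPM, SD, n = 5, log2 difference 2.26, SE 0.28, edgeR adjusted p = 0.0497). That call was lost with all 12 CD45- libraries (log2 difference 1.98, adjusted p = 1.00), with RLE scaling (adjusted p = 0.0523) and with 9 of the 11 libraries left out in turn (adjusted p 0.0173 to 0.219 over all 11). Tested Hoil1-/- libraries ran from 7.91 to 229 CPM of Trpm5, the high values being those of f/f given below. Dclk1, the tuft cell marker kinase, was at 14.1 ± 9.31 and 41.8 ± 37.1 CPM (1.51, SE 0.35, adjusted p = 0.364). Retnlb, a goblet cell product, was at 0 in all 6 Hoil1+/+ libraries, against 0 to 55.4 CPM in 5 of Hoil1-/- (adjusted p = 0.311). It passed the low-count filter through its Hoil1-/- libraries, so the counts for this list, here and within f/f, are a description. Within f/f, where the epithelium keeps the receptor, all 7 had positive differences with a median of 2.86, or 2.61 without the genes that had no count in a whole group, and 5 of 7 were higher at an unadjusted p under 0.05 (13.1% of all genes). The quasi-likelihood test called 1 of them there (0.0365% of all genes), Trpm5, at 214 and 229 CPM in the tested Hoil1-/- libraries, 3.09 CPM in the left-out one and 7.29 to 17.01 CPM in Hoil1+/+ (log2 difference 4.58, SE 0.44, adjusted p = 0.00756). With all 12 libraries that call was lost as well (4.01, adjusted p = 0.324), as it was without Hoil1+/+ f/f replicate 1 (adjusted p = 0.0658) or 2 (adjusted p = 0.0727). Of the epithelial markers, 6 of 6 also had positive differences within f/f (median 1.85), 2 at an unadjusted p under 0.05 and none called, and their sum was 14329 and 12599 CPM in the tested Hoil1-/- f/f libraries, 2949 CPM in the left-out one and 1562 to 7299.8 CPM in Hoil1+/+ f/f. Over all CD45- libraries the sum ran from 962 to 14329 CPM, and its part in the epithelial genes' differences was not tested. In CD45+ cells, 0 of 6 of these genes had an unadjusted p under 0.05.

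The genes whose pattern over the 12 CD45+ libraries was most like that of each member were ranked by Pearson's r of log2(CPM + 0.1) among 16059 genes, as a description, since libraries share genotype and depth. For Il5 they were Pcsk1 (r = 0.92), Nmur1 (0.90), Klrg1 (0.88), 1700061F12Rik (0.87) and Ccl24 (0.86), and 4 of these 5 are on the ILC2 marker or macrophage response list. For Il13 they were Mmp25 (0.89), Chdh (0.88), Calca (0.88), Erich1 (0.87) and Epas1 (0.85). Il5 and Il13 were close to each other, with r = 0.83, and each ranked among the 12 genes most like the other. For Il4 the nearest were Jag1 (0.97), Malsu1 (0.94), Ccdc184 (0.94), Aftph (0.93) and Zup1 (0.93), and its r with Il13 was 0.52 and with Il5 0.17. For Csf2 they were Nefh (0.96), Pdzk1 (0.96), Wrn (0.96), Smpd3 (0.95) and Tcrg-V1 (0.95), and its r with Il5 was -0.41. For Areg they were Myo10 (0.96), A930005H10Rik (0.96), Rab11fip1 (0.96), Lrp11 (0.96) and Lrch4 (0.95), and the member nearest to it was Il4 (0.67).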

How the data were processed

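RNA sequencing libraries of sorted ileal cells were analysed from the count table that the authors deposited: raw read counts per Ensembl gene, made by trimming with cutadapt, aligning to mm10 with STAR and counting with featureCounts. Tool versions and the strand setting of the counting are not given in the sources used here. Of the 39056 gene IDs, 38872 matched GENCODE M21. Groups came from the sample labels, and replicate numbers were given in accession order and are only names. The labels do not tie libraries to mice, so p-values measure the spread between libraries and cannot separate mice from technical variation.

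Counts were tested with edgeR 4.0.16 (R 4.3.3; TMM scaling, filterByExpr at min.count 10 and min.total.count 15, glmQLFit and glmQLFTest, 1 mean per group, Benjamini-Hochberg over all genes tested, threshold 0.05), separately in each fraction and without the 3 libraries that the study removed. Single genes were tested with two-sided exact permutation tests of mean log2(CPM + 0.1) in scipy 1.17.1. Fitted log2 differences are not given for a gene with no count in a whole group. Alternatives were all libraries, the likelihood ratio test, exactTest, DESeq2 1.42.0, other scaling, no filter, removal of immunoglobulin genes, and leaving out each library in turn. The edgeR script was tested on simulated data. Floors are 3 counts in a library. Promoter windows of 250 bases came from RefSeq.

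The 6 genes and the gene lists were chosen with earlier results of these data known. Named from each list were the 3 genes with the smallest unadjusted p in the averaged CD45+ Hoil1 comparison (for epidermal growth factor receptor ligands and epithelial genes also in CD45-), any gene past the threshold, and the 5 genes most correlated with each cytokine gene.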

Additional observations from a re-analysis of the deposited data

Results flagged for a closer look

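By Dixon's criterion, 2 values stood apart among 13 groups of libraries examined. In both of these groups every other value was 0, and any value above 0 then meets the criterion. Its usual rate of about 1 in 20 groups does not apply there. Il5 was at 0.237 CPM in CD45+ Hoil1+/+ ΔIEC replicate 3, while the other 5 CD45+ Hoil1+/+ libraries had no count of it. Csf2 was at 0.864 CPM in CD45- Hoil1+/+ f/f replicate 2 and at 0 in the other Hoil1+/+ CD45- libraries.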

How the results depend on the processing

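The number of cytokine genes called depended on the test. For the averaged Hoil1 comparison in CD45+ cells it was 0 with the quasi-likelihood test and 2 with both the likelihood ratio test and DESeq2. Within f/f it was 0, against 1 with the likelihood ratio test, DESeq2 or exactTest, and within ΔIEC 0, against 1 with DESeq2. The number of all genes called in the averaged comparison was 1, against 103 with the likelihood ratio test, 144 with DESeq2, 2 with all libraries, 6 without the low-count filter and 6 without immunoglobulin genes. The causes were not tested. No other scaling, filter or left-out library led the quasi-likelihood test to call a member in any Hoil1 or Il4ra comparison.

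Signs turned for some small differences. With all libraries, the Csf2 difference within f/f was -0.047, the Il13 interaction -0.074 and the Areg difference between fractions -0.021. With 1 library left out at a time, ranges were -1.26 to 1.78 for Il4 within f/f (negative without Hoil1-/- replicate 2), -0.24 to 1.56 for Csf2 within f/f (negative without the same library), -0.79 to 1.13 for the Areg interaction and -1.40 to 2.86 for the Il13 interaction. They were -1.26 to 0.044 for the CD45- Areg Hoil1 difference, -1.17 to 0.14 for its Il4ra difference and -0.18 to 0.54 for Areg between fractions. The Il13 difference within f/f ran from 1.47, without the same library, to 5.73. In the permutation test the ranges were 0.93 to 2.47 for Il4, 3.65 to 5.37 for Il13, and -0.81 to 0.14 for Csf2. With 1 mean per fraction, chosen after seeing the data, 2 members were called between fractions, against 3, because Il13 and Il5 no longer passed the filter. Split by age class, chosen after seeing the data, no permutation test could go below p = 0.0571. The differences were 5.81 for Il5 and 4.02 for Il13 in the older mice (exact permutation p = 0.0571 and 0.114), and 5.44 and 3.10 in the younger (p = 0.200 each), where Il4 turned to -1.74 and Areg to -2.86. No paired analysis was possible because the labels give no shared mouse or replicate number. With 2 tested libraries in each Hoil1-/- group, spread within a genotype is poorly known.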
